A study of Mus musculus with 6 samples.

Results

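The 7 genes described here encode the kainate receptors of the mouse hippocampus. Grik1 to Grik5 encode the channel subunits GluK1 to GluK5, and Neto1 and Neto2 encode their auxiliary membrane proteins. They were chosen by gene symbol, without use of their values, though with earlier results of these data known. The choice was made from a deposited table of 54532 genes, and all 7 were among the 20952 genes that were tested. Hippocampal RNA of 3 wild-type (WT) mice and 3 transgenic (TG) mice was sequenced, giving libraries WT1, WT2, WT3, TG1, TG2 and TG3. Per the study's methods, the TG mice are knock-in animals in which CRISPR/Cas9 placed the p.Gly82Arg and p.Leu85Pro changes in exon 3 of Slc1a2, on a C57BL/6N background, and the WT mice are littermates without these changes. Slc1a2 encodes GLT-1, the main glutamate transporter of astrocytes. The sample titles name no treatment. The age, the sex of each sequenced mouse and the number of altered Slc1a2 copies are not given in the sources used here. In the study, WT and variant mice of both sexes went through behaviour tests, among them fear conditioning with electrical shocks. Whether the sequenced mice were among those tested is not said. The comparison asks whether the transcripts of kainate receptors differ between hippocampi with altered and with normal GLT-1.

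Kainate receptors are glutamate-gated cation channels built as tetramers. GluK1, GluK2 and GluK3 can form a channel by themselves, whereas GluK4 and GluK5 bind kainate with high affinity but need one of the other three subunits to make a working channel. Neto proteins bind the channel, slow its closing and help to place it at synapses. In the hippocampus these receptors are known above all from the mossy fibre synapse, where axons of dentate granule cells reach CA3 pyramidal cells, and from inhibitory interneurons, and kainate itself is a classical agent for producing seizures.

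The members are related genes, so it was first asked how well reads can be assigned among them. The longest run of residues common to the 5 Grik coding sequences of GENCODE M21 was 19 residues long and lies in the third membrane segment, which lines the pore. The first 30 bases that encode it are shown because they let the genes be compared base by base where their proteins are the same. They are written 5′ to 3′ on the coding strand, and capitals mark the 9 positions at which the 5 genes are not all the same.
Grik1: ttcacCCtAatCatcatCtcAtcCtaCacT
Grik2: ttcacACtTatCatcatTtcTtcGtaTacC
Grik3: ttcacCCtCatTatcatCtcCtcCtaCacG
Grik4: ttcacGTtGatCatcatCtcCtcCtaCacG
Grik5: ttcacCTtGatCatcatCtcCtcCtaCacG

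In GRCm38 these stretches lie at chr16:87936027-87936056 (Grik1, minus strand, exon 14 of 18), chr10:49240708-49240737 (Grik2, minus strand, exon 14 of 17), chr4:125694021-125694050 (Grik3, plus strand, exon 13 of 16), chr9:42543887-42543916 (Grik4, minus strand, exon 17 of 21) and chr7:25015937-25015966 (Grik5, minus strand, exon 16 of 20). Grik2 differed from Grik1 at 7 of the 30 bases and from Grik3, Grik4 and Grik5 at 8 each. Over the aligned coding sequence, Grik1, Grik2 and Grik3 had 68.8% to 72.3% identical bases and Grik4 and Grik5 had 69.4%. Between these subfamilies, identity was 50.8% to 56.5%. Neto1 and Neto2 had 62.1% identical bases. No stretch of 50 bases in a transcript of one member occurred in a transcript of another. At most 0.448% of the 50-base stretches of a Grik gene occurred in a transcript of any other gene, and none did for Neto2. For Neto1 the share was 2.04%, all of it with AC113599.1, an antisense gene, and the sources used here do not say whether reads were counted by strand.

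The depth was 16081281 to 18751057 reads on genes per library, so that 3 reads per kb of gene correspond to 0.160 to 0.190 FPKM, the reads of a gene scaled by its length and by the depth of the library. Among members, the fewest reads were 177 for Grik1 in TG2 and the most were 5430 for Grik5 in WT3. The lowest FPKM of a member, 1.47 for Grik1 in TG2, lay above the FPKM of 3 reads per kb. Prox1, a transcription factor of dentate granule cells, had an FPKM of 9.81 to 14.4 over the 6 libraries, and no gene of the neuron, dentate, CA3, CA1, interneuron or glial marker lists was at 0 in all libraries. The same held for the thalamus, neocortex, striatum and choroid plexus lists, so this criterion cannot tell hippocampus from other brain tissue. FPKM cannot show the Slc1a2 substitutions, so the genotype labels were not checked. Some marker lists set libraries apart, and their values stand beside the members below. The choroid plexus secretes cerebrospinal fluid, and the summed FPKM of 10 of its marker genes was 1336 in TG1 and 4183 in TG2 and between 82.5 and 111 in the other 4 libraries. In bulk RNA, fewer cells of a type and less RNA per cell cannot be told apart. FPKM are normalised to the length of each gene, so levels of different members are compared on this scale.

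Grik5 was the most abundant member, with a mean FPKM over the 6 libraries of 55.8, followed by Neto1 with 35.3, Grik4 with 10.2, Neto2 with 7.44, Grik3 with 7.24, Grik2 with 5.10 and Grik1 with 1.84. The lowest Grik5 library (50.6) lay above the highest Neto1 library (42.0), the lowest Neto1 library (31.9) above the highest Grik4 library (12.04), and the lowest Grik4 library (8.79) above the highest Neto2 library (7.67). Neto2 and Grik3 could not be ordered, because Neto2 exceeded Grik3 in only 2 of 6 libraries although its mean was higher. Grik3 exceeded Grik2 in 6 of 6 libraries, but their ranges over the libraries overlapped. The lowest Grik2 library (4.64) lay above the highest Grik1 library (2.10). The level of Neto1 depends on its gene model, since its FPKM were computed with a length of 3531 bases, and the same gene has 8352 bases of exon in GENCODE M21, where it ends at 86506718 and not at 86501897. With the same reads and the longer length, an alternative chosen after seeing the data, Neto1 had a mean of 14.9 FPKM and a lowest library of 13.5, still above the highest Grik4 library and below Grik5. Reads beyond 86501897 lie outside the gene model of the authors and are not among the reads used. These values are therefore lower limits for the longer model, and they do not settle its order relative to Grik5. For the other 6 members the length used by the authors equalled the exon length in GENCODE M21. This length joins the exons of all annotated transcripts of a gene, 11 for Grik2, whose length is 13246 bases. The order of levels rests on it, since mean reads were 1180 for Grik2, 1136 for Grik3 and 1064 for Grik4. Which transcripts were present was not tested.

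**Figure D1:**
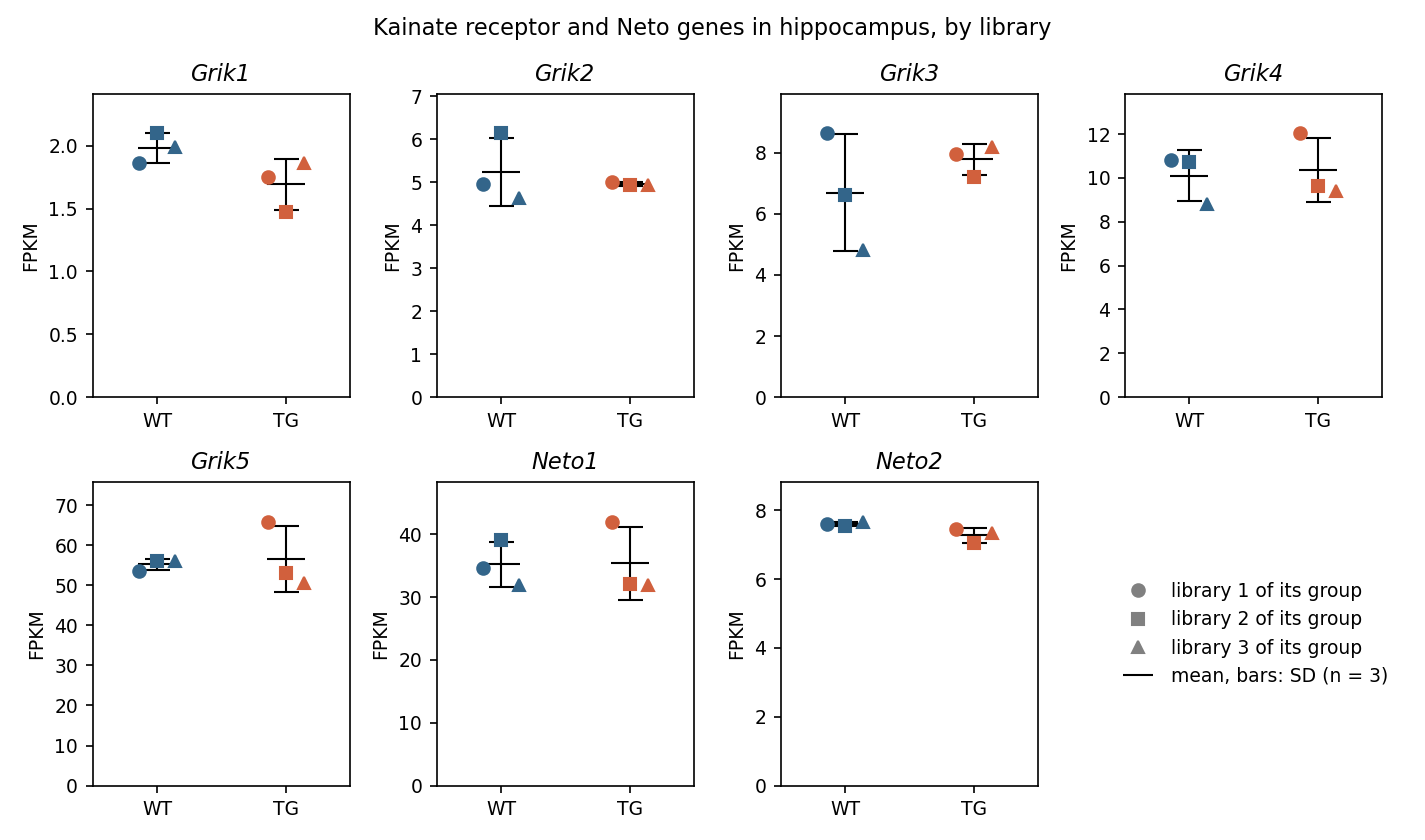
FPKM of the 5 Grik and 2 Neto genes in the 3 WT (blue) and 3 TG (orange) libraries, with each y axis starting at 0. Points are libraries, the long horizontal marks are group means and the bars are SD (n = 3). The groups overlap in every panel but that of Neto2, and TG1 (orange circle) is the highest point for Grik4, Grik5 and Neto1.

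With limma on log2(FPKM + 0.1), none of the 7 members was higher or lower in TG mice at a Benjamini-Hochberg adjusted p under 0.05, where 0.00955% of the 20952 genes tested were called. None had an unadjusted p under 0.05 either, in limma or in limma-voom on recovered reads. Of all genes, 5.91% did in limma and 1253 of 20952 did in limma-voom. The smallest adjusted p among members was 0.789. The limma log2 difference, TG minus WT, was below 0 for 4 members, as for 50.4% of all genes, and the median over the members was -0.0017, beside -0.0020 over all genes tested. The FPKM of the groups did not overlap for 1 of 7 members, Neto2, and for 12.1% of all genes. Each difference is given below with its 95% interval, since a p above the threshold does not show that expression was equal.

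**Figure D2:**
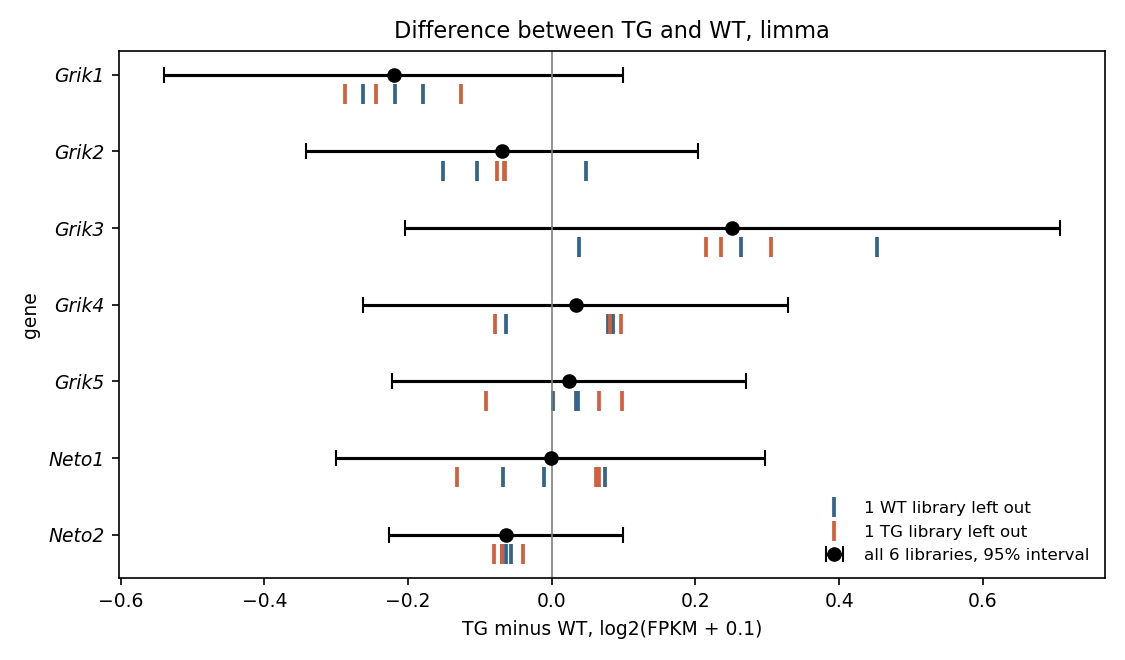
TG minus WT difference of each member on log2(FPKM + 0.1). Black circles and bars are the limma estimate and its 95% interval with all 6 libraries, and vertical ticks are estimates with 1 WT (blue) or 1 TG (orange) library left out. Every interval includes 0, and the ticks of Grik2, Grik4, Grik5 and Neto1 fall on both sides of 0.

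Of the subunits that form channels by themselves, Grik1 (ENSMUSG00000022935, chromosome 16 from 87895900 to 88290265, minus strand) had the lowest level. GluK1 is known from hippocampal interneurons. Its FPKM was 1.86 (WT1), 2.10 (WT2) and 1.99 (WT3) against 1.75 (TG1), 1.47 (TG2) and 1.86 (TG3). TG2 was the lowest library, and the highest TG library lay just above the lowest WT library, so the groups overlapped. The mean was 1.98 ± 0.121 (WT) and 1.69 ± 0.202 (TG, SD, n = 3 each), a log2 difference of -0.22 (standard error 0.136, 95% interval -0.54 to 0.10, adjusted p = 0.789 in limma). This interval covers TG levels from 0.688 to 1.07 times those of WT mice. TG2 was also the library with the highest choroid plexus sum. With a choroid plexus score as a covariate the log2 difference of Grik1 was -0.05 (95% interval -0.49 to 0.38, unadjusted p = 0.785 in limma). The choroid plexus sum was high in TG1 and TG2 only, so the score cannot be fully separated from genotype. Without TG2 the log2 difference was -0.13, without TG1 it was -0.25, without TG3 it was -0.29 and without both TG1 and TG2 it was -0.08. Leaving out 1 WT library gave -0.26 to -0.18. The 9 interneuron markers, from Gad1 to Cck, had a median log2 difference of -0.0013 and none had an unadjusted p under 0.05, and their summed FPKM was 649 to 892 (WT) and 653 to 743 (TG). The fit with the covariate tested genotype and not the score, and the interneuron list was not used as a covariate. The part of either list in the Grik1 values was not tested.

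Grik2 (ENSMUSG00000056073, chromosome 10 from 49094833 to 49788766, minus strand) encodes the subunit known as the main one of mossy fibre receptors, and it was the member with the longest genomic span, 693.9 kb. It had an FPKM of 4.95 (WT1), 6.15 (WT2) and 4.64 (WT3) against 5.01 (TG1), 4.94 (TG2) and 4.93 (TG3). The TG libraries were almost equal, while WT2 stood above the other 5 libraries. The group means were 5.25 ± 0.796 (WT) and 4.96 ± 0.0434 (TG, SD, n = 3 each), with a log2 difference of -0.07 (standard error 0.116, 95% interval -0.34 to 0.20, adjusted p = 0.889 in limma). Without WT2 the difference was 0.05. The coefficient of variation in TG mice, 0.876%, was smaller than the counting error of 3.09% that 1050 reads allow.

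Grik3 (ENSMUSG00000001985, chromosome 4 from 125490700 to 125714173, plus strand), which encodes a subunit with low affinity for glutamate, varied the most. Its FPKM was 8.64 (WT1), 6.62 (WT2) and 4.82 (WT3) against 7.94 (TG1), 7.21 (TG2) and 8.19 (TG3). All 3 TG libraries fell inside the WT range, and WT3 was the lowest and WT1 the highest library of all. The mean was 6.69 ± 1.91 (WT) and 7.78 ± 0.508 (TG, SD, n = 3 each), a log2 difference of 0.25 (standard error 0.194, 95% interval -0.20 to 0.71, adjusted p = 0.789 in limma). Leaving out 1 WT library decided this value. It was 0.45 without WT1 (unadjusted p = 0.0294 and adjusted p = 0.682 in limma) and 0.04 without WT3 (unadjusted p = 0.782).

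The spread of Grik3 between WT mice was wide for its depth. On 810 to 1434 reads, which allow a counting error of at most 3.51%, its coefficient of variation was 28.6% (WT) and 6.53% (TG). Of 4445 genes with a mean read number within a factor of 2 of that of Grik3, 1.10% had a larger coefficient of variation in WT mice, and their median was 8.09%. Other lists, chosen after their values were seen, moved with Grik3 over the WT libraries. The medians of 5 thalamus, 6 oligodendrocyte and 10 choroid plexus genes, relative to the WT mean on the log2 scale, were 0.20, 0.16 and 0.28 in WT1, and they were -0.18, -0.21 and -0.22 in WT3. In TG1, where Grik3 was at 0.28, they were 0.16, -0.66 and 3.00. Between the groups, all 5 neocortex markers had a log2 difference above 0, whereas 50.4% of all genes had one below 0. Of these markers, 2 had an unadjusted p under 0.05 in limma, beside 5.91% of all genes. They were Cux2 (0.48, unadjusted p = 0.0084) and Rspo1 (0.85, unadjusted p = 0.0233). The median of that list was 0.30 in TG1, 0.01 in TG2 and 0.47 in TG3, where Grik3 was at 0.28, 0.15 and 0.33, and it was between -0.13 and 0.07 in the WT libraries. All 5 thalamus markers had a log2 difference above 0 as well, with a median of 0.16, beside 0.15 for the neocortex markers. The summed FPKM of the thalamus markers was 8.18 to 10.6 (WT) and 9.73 to 11.1 (TG), and none of the 5 had an unadjusted p under 0.05 in limma. The part of these lists in the values of Grik3 was not tested.

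Of the high-affinity subunits, Grik4 (ENSMUSG00000032017, chromosome 9 from 42518135 to 42944493, minus strand) is known for its strong expression in CA3 pyramidal cells. It had an FPKM of 10.8 (WT1), 10.7 (WT2) and 8.79 (WT3) against 12.04 (TG1), 9.63 (TG2) and 9.42 (TG3). TG1 was the highest library and WT3 the lowest, and TG2 and TG3 lay within the WT range. The means of 10.1 ± 1.14 (WT) and 10.4 ± 1.46 (TG, SD, n = 3 each) differed by 0.03 on the log2 scale (standard error 0.126, 95% interval -0.26 to 0.33, adjusted p = 0.955 in limma). The difference was -0.08 without TG1 and -0.06 without WT3.

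Grik5 (ENSMUSG00000003378, chromosome 7 from 25009849 to 25072346, minus strand) encodes GluK5, which assembles with GluK2 in most brain receptors. Its FPKM was 53.5 (WT1), 56.0 (WT2) and 56.1 (WT3) against 65.9 (TG1), 53.0 (TG2) and 50.6 (TG3). TG1 stood above all WT libraries and TG2 and TG3 stood below all of them. The means were 55.2 ± 1.46 (WT) and 56.5 ± 8.20 (TG, SD, n = 3 each), a log2 difference of 0.02 (standard error 0.105, 95% interval -0.22 to 0.27, adjusted p = 0.961 in limma). Without TG1 the difference was -0.09 (adjusted p = 0.898 in limma). Grik5 had a coefficient of variation of 2.64% (WT) and 14.5% (TG), on 4671 to 5430 reads.

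Neto1 (ENSMUSG00000050321, chromosome 18 from 86394952 to 86501897, plus strand) encodes the auxiliary protein known from CA3 pyramidal cells, where it also associates with NMDA receptors. It had an FPKM of 34.6 (WT1), 39.0 (WT2) and 32.0 (WT3) against 42.0 (TG1), 32.1 (TG2) and 31.9 (TG3). TG1 was again the highest library, and TG2 and TG3 lay beside WT3 at the low end. The means were 35.2 ± 3.54 and 35.3 ± 5.76 (SD, n = 3 each), and the log2 difference was -0.0017 (standard error 0.127, 95% interval -0.30 to 0.30, adjusted p = 0.998 in limma). It was -0.13 without TG1 and 0.07 without WT2.

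Neto2 (ENSMUSG00000036902, chromosome 8 from 85636588 to 85700924, minus strand), whose protein also binds the potassium-chloride cotransporter KCC2, had the steadiest level. Its FPKM was 7.60 (WT1), 7.55 (WT2) and 7.67 (WT3) against 7.45 (TG1), 7.04 (TG2) and 7.34 (TG3). Every TG library lay below every WT library, by a small step. The mean was 7.60 ± 0.0619 (WT) and 7.28 ± 0.216 (TG, SD, n = 3 each), a log2 difference of -0.06 (standard error 0.0693, 95% interval -0.23 to 0.10, unadjusted p = 0.390 and adjusted p = 0.827 in limma). The highest library was 1.09 times the lowest, and 96.9% of 4974 genes with a mean read number within a factor of 2 of that of Neto2 had a larger ratio. The WT coefficient of variation, 0.814%, was below the counting error of 3.72% at the lowest read number of 723, and the lowest WT library (7.55) and the highest TG library (7.45) differed by less than that error.

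The 3 members that were highest in TG1 moved by nearly the same amount there. Relative to the WT mean on the log2 scale, Grik4 was at 0.26, Grik5 at 0.25 and Neto1 at 0.26 in TG1, whereas they were between -0.13 and -0.06 in TG2 and between -0.14 and -0.09 in TG3. In TG1, Grik3 was at 0.28, inside its wide WT range, Grik2 and Neto2 were at -0.05 and -0.03, and Grik1 was at -0.17. The median over the 7 members was 0.25 in TG1, against -0.08 in TG2 and -0.08 in TG3, and that over all genes tested was -0.0050 in TG1. The medians of other lists, chosen after their values were seen, stood apart in TG1 too. The 6 neuron markers had a median of 0.16, the 7 NMDA receptor genes of 0.23, the 6 oligodendrocyte markers of -0.66 and the 10 choroid plexus markers of 3.00, while in TG2 these medians were -0.09, -0.05, -0.20 and 4.399. In TG1 the median was 0.07 for CA3, 0.19 for CA1, -0.11 for dentate granule cell and 0.10 for interneuron markers. For the 4 AMPA receptor genes it was 0.05. The 5 microglia markers were at -0.26 in TG1 and 0.21 in TG2. The summed FPKM of the oligodendrocyte markers was 388 in TG1, against 497 to 628 in WT mice. That of the NMDA receptor genes was 121 in TG1, above the WT range of 91.1 to 113. That of the neuron markers was 892 in TG1, inside the WT range of 826 to 898. With TG3 as the only TG library, the log2 differences were -0.09 for Grik4, -0.12 for Grik5 and -0.14 for Neto1, and no member had an unadjusted p under 0.05 in limma. The part of these lists in the values of the members was not tested.

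**Figure D3:**
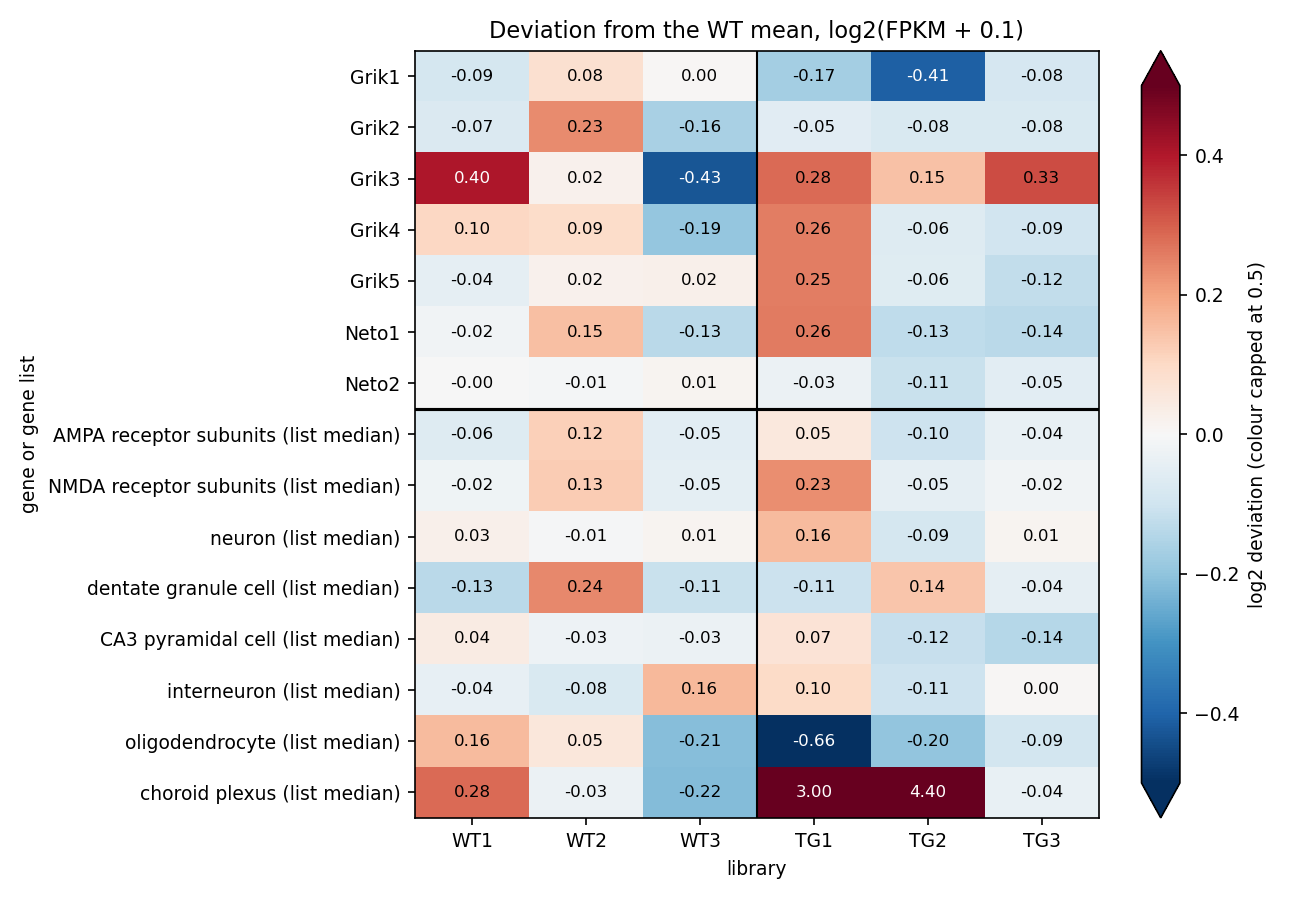
Deviation of each library from the WT mean on log2(FPKM + 0.1), for the 7 members (above the line) and as medians of 8 gene lists (below), with colour capped at 0.5. In TG1, Grik4, Grik5 and Neto1 are at 0.25 to 0.26, the oligodendrocyte list is at -0.66 and the choroid plexus list is at 3.00.

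The make-up of the receptors was compared as the share of each gene in the summed FPKM, which cancels changes common to all Grik genes. Grik5 held 69.7% ± 3.35 of the Grik sum of WT mice, against 69.4% ± 1.82 (TG, SD, n = 3 each), and its share was 67.1% to 73.5% over the 6 libraries. Grik4 held 12.7% ± 1.08 (WT) and 12.7% ± 0.241 (TG), Grik3 8.42% ± 2.27 (WT) and 9.65% ± 1.18 (TG), Grik2 6.61% ± 0.810 and 6.15% ± 0.646, and Grik1 2.503% ± 0.150 and 2.10% ± 0.331 (SD, n = 3 each). Together, the high-affinity subunits made up 82.5% ± 2.27 of the sum of WT mice, against 82.1% ± 2.05 (TG, SD, n = 3 each). These shares compare transcripts and not proteins, and they rest on the gene lengths used for FPKM.

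Neto1 held 82.2% ± 1.57 of the Neto sum of WT mice, against 82.8% ± 1.91 (TG, SD, n = 3 each), on the shorter gene length noted above. With the same reads and the longer length the share was 66.1% ± 2.41 (WT) and 67.0% ± 3.00 (TG, SD, n = 3 each). These shares are lower limits too, since reads on the added bases are not among those used. The Grik sum itself was 79.8 (WT1), 81.5 (WT2) and 76.4 (WT3) FPKM against 92.6 (TG1), 76.2 (TG2) and 75.045 (TG3), so TG1 stood out here as well. Of the 9 shares and sums, none had a p under 0.05 in a two-sided exact permutation test of 3 against 3 libraries, which cannot give less than 0.1. The smallest p was 0.2, for the share of Grik1, and the adjusted p was 1.0 for all 9 (Benjamini-Hochberg over the 9 exact permutation tests).

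**Figure D4:**
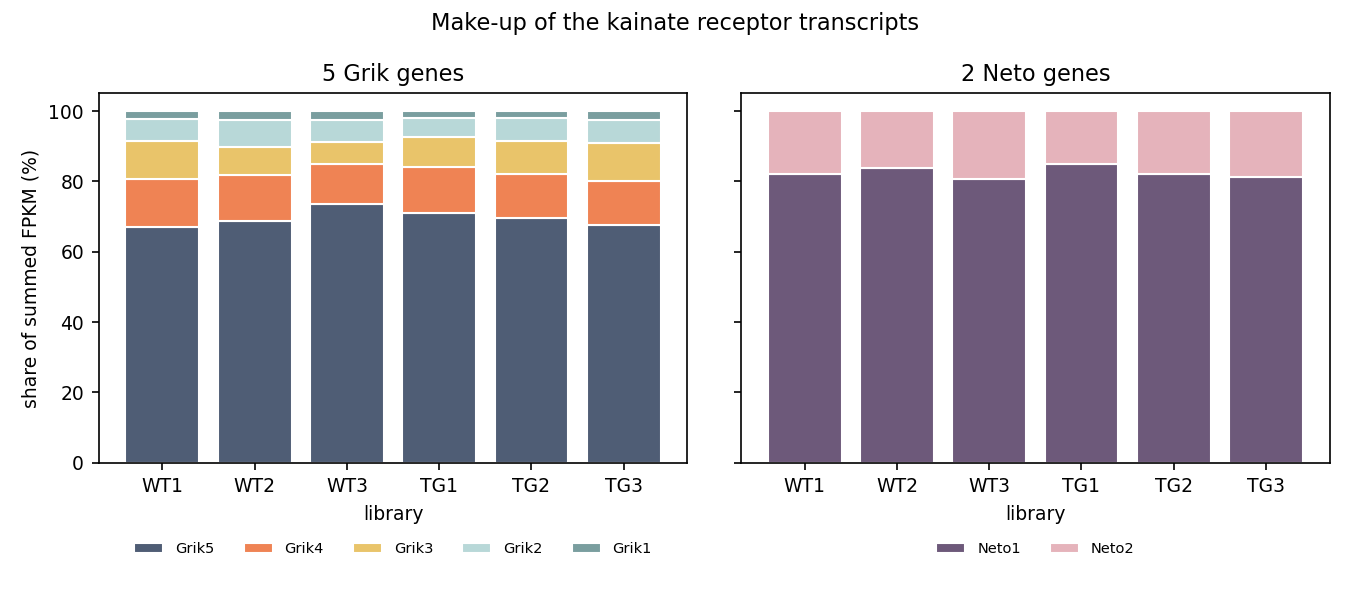
Share of each gene in the summed FPKM of the 5 Grik genes (left) and of the 2 Neto genes (right), in percent, with 1 bar per library and segments that add up to 100%. Grik5 holds 67.1% to 73.5% and Neto1 holds 80.7% to 84.9% of its sum in every library.

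Kainate receptor genes were also set beside the other ionotropic glutamate receptors. In each library the 5 Grik genes made up 16.6% to 18.5% of the summed FPKM of 18 ionotropic receptor genes, that is 17.7% ± 0.980 (WT) and 18.001% ± 0.513 (TG, SD, n = 3 each). The 4 AMPA receptor genes made up 54.1% to 57.2% and the 7 NMDA receptor genes 21.8% to 24.1%. None of the 4 AMPA and 6 NMDA receptor genes tested had an adjusted or an unadjusted p under 0.05 in limma. Their median log2 differences were -0.03 and 0.06. The lowest Grik5 library (50.6 FPKM) lay above the highest library of Grin1 (46.2 FPKM), the most abundant NMDA receptor gene, whose subunit all NMDA receptors contain and which had an FPKM of 40.8 ± 2.14 (WT) and 41.6 ± 4.08 (TG, SD, n = 3 each). Gria1 was the most abundant AMPA receptor gene at 174 ± 16.6 and 170 ± 17.4 FPKM. The smallest unadjusted p of these families was 0.521 for Gria4 (9.47 and 9.15 FPKM in WT and TG mice) and 0.332 for Grin2c (11.5 and 12.3 FPKM), both from limma.

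The proteins that bind, anchor, edit or modify kainate receptors were followed on a list of 18 genes, of which 17 were tested and 1 was not analysed here. None of the 17 had an adjusted or an unadjusted p under 0.05 in limma or in limma-voom on recovered reads. Of all genes, 0.00955% and 5.91% did in limma, and 0 and 1253 of 20952 did in limma-voom. Of the 17 log2 differences, 11 were above and 6 below 0, from -0.16 to 0.15, with a median of 0.03. The most abundant was Slc12a5, which encodes KCC2, with an FPKM of 86.4 (WT1), 87.9 (WT2) and 76.5 (WT3) against 96.5 (TG1), 83.7 (TG2) and 92.0 (TG3). These groups overlapped, and the log2 difference was 0.12 (standard error 0.0877, adjusted p = 0.789 in limma).

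The smallest p of the list belonged to C1ql3, one of the C1q-like proteins that mossy fibres secrete and that gather kainate receptors at the synapse. Its FPKM was 23.4 (WT1), 25.5 (WT2) and 24.0 (WT3) against 22.5 (TG1), 22.7 (TG2) and 20.97 (TG3). No TG library reached the lowest WT library, which made C1ql3 the 1 partner gene of 17 without overlap (12.1% of all genes), and the log2 difference was -0.14 (standard error 0.0678, unadjusted p = 0.0739 and adjusted p = 0.786 in limma). Its relative C1ql2 had an FPKM of 59.3 ± 7.12 (WT) and 52.8 ± 4.18 (TG, SD, n = 3 each), with overlapping groups. Adarb1, the enzyme that edits Grik1 and Grik2 transcripts, had 17.1 ± 1.72 and 18.9 ± 1.27 FPKM, and the editing itself cannot be read from FPKM. Of the 5 CA3 pyramidal cell markers, 1 had an unadjusted p under 0.05, beside 5.91% of all genes. This was Iyd, whose FPKM was 2.49 ± 0.0665 (WT) and 1.73 ± 0.463 (TG, SD, n = 3 each, adjusted p = 0.786 in limma). The other CA3 markers had an unadjusted p of 0.23 to 0.65 in limma, and 1 of them, Spock1, had a log2 difference above 0. The choice of C1ql2, Adarb1 and Iyd followed a look at their values. The summed FPKM of the CA3 list was 103 to 113 (WT) and 97.5 to 114 (TG).

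The gene with the most similar pattern to a member was found among the 13324 genes whose mean FPKM reached 1, as the smallest root-mean-square difference of centred log2 values over the 6 libraries. The closest genes were Ccser1 for Grik1 (0.0316), Jmjd1c for Grik2 (0.0268), Dtx3l for Grik3 (0.0207), Bcas3 for Grik5 (0.0303), Adam11 for Neto1 (0.0348) and Lancl1 for Neto2 (0.0059). The median gene was at 0.139 to 0.315 from a member. Dtx3l, a ubiquitin ligase, had 1.53 (WT1), 1.17 (WT2) and 0.840 (WT3) against 1.47 (TG1), 1.28 (TG2) and 1.49 (TG3), with the ends of the range in WT1 and WT3 as for Grik3. These likenesses over 6 libraries are descriptions, and no test was made.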

How the data were processed

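Hippocampal RNA of 3 WT and 3 TG mice was sequenced, and samples were grouped by their labels. Per the study's methods, reads per gene were counted with HTSeq v0.6.0, and the authors deposited FPKM computed from gene length and read count, on GRCm38. The methods name a NEBNext Ultra library kit and the labels a SMARTER kit, and the aligner is not given in the sources used here. The labels number the mice but name no culture, litter or batch.

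Whole reads were recovered from the FPKM and gene lengths (tolerance 0.05, 100% of values). Testing took genes whose mean FPKM reached 0.1, as log2(FPKM + 0.1) with limma 3.58.1 in R 4.3.3 (empirical Bayes with trend, all 20952 genes adjusted together by the Benjamini-Hochberg method), so fold changes of low genes are understated. Shares and sums were compared with two-sided exact permutation tests in Python 3.11.15. Intervals have a confidence level of 95%. Counting errors (1 over the square root of the reads) cover counting only. The script was tested on simulated data. Alternatives were other pseudocounts, filters and scalings, limma-voom on recovered reads, a replicate block, a choroid plexus covariate, another gene length for Neto1 and leaving out libraries. Coordinates, exons and sequences are from GENCODE M21, in which 54409 of 54532 gene IDs were found.

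The members and lists were chosen with earlier results of these data known. Named were all 7 members, the most abundant gene and the gene with the smallest p of each pathway list, and the gene most similar to each member, beside genes said to be chosen after their values were seen. Some results under this rule are not reported here.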

Additional observations from a re-analysis of the deposited data

How the results depend on the processing

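Of 119 log2 differences of the 7 members over 17 alternatives, 107 kept their direction and 12 reversed, and no member reached an adjusted p under 0.05 in any (limma or limma-voom). Left out one library at a time, the log2 difference ran from -0.15 to 0.048 for Grik2, from -0.079 to 0.097 for Grik4, from -0.091 to 0.098 for Grik5 and from -0.13 to 0.074 for Neto1, and the partner median from -0.013 to 0.052. The number of members at an unadjusted p under 0.05 ran from 0 to 1 (Grik3 without WT1). Quantile normalization gave 0.022 for Neto1, and the choroid plexus covariate gave -0.0402 for Grik4 and -0.0400 for Grik5. Without TG1 and TG2, an alternative chosen after seeing the data in which the lone TG library is assumed to vary like the WT libraries, Grik4 was at -0.095, Grik5 at -0.12, the Neto1 share at -0.84 percentage points and the Grik sum at -4.18 FPKM. Left out one library at a time, the differences in percentage points ran from -0.72 to 0.012 for Grik2, -0.62 to 0.40 for Grik4, -1.69 to 1.52 for Grik5, -1.39 to 0.90 for Grik4 and Grik5 together and -0.48 to 1.42 for Neto1, and in FPKM from -3.59 to 5.19 for the Grik sum and -3.61 to 1.68 for the Neto sum. The cause of these reversals was not tested. Over all genes, adjusted calls numbered 2, and 0 to 9 under the alternatives.

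Same-numbered WT and TG libraries correlated at 0.0125, 0.0434 and 0.0031 in their deviations from the group means, so the numbers were not taken to pair the mice. With a replicate block, 0 members had an adjusted or an unadjusted p under 0.05 in limma, unadjusted p was 0.207 for Grik1 and 0.211 for Grik3, 0 genes of all passed adjustment, and 1244 of all genes had an unadjusted p under 0.05, so that the block changed no call of a member.

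With 3 mice per group, the upper 95% limits of the members lay at 0.10 to 0.71 and the lower limits at -0.54 to -0.20 on the log2 scale, and exact tests cannot go below 0.1. Counting limited Grik1 most, with an error of 7.52% in its lowest library.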
